A study of Mus musculus with 42 samples.

Results

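The keratin family was followed here as every gene whose probe sets on the array carried a single symbol beginning with Krt and a digit, which left out the keratin-associated proteins. This gave 52 genes of the 19938 measured, each read by 1 probe set. Of them 27 lie on chromosome 11, in the type I cluster, and 25 on chromosome 15, where the type II cluster and the type I gene Krt18 lie. By the epithelium they are known from, 6 were keratins of simple epithelium, 22 of basal or stratified epithelium, 13 of hair and 8 of the inner root sheath of the hair follicle. The remaining 3 (Krt222, Krt88 and Krt90) were in none of these lists.

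Keratins are the intermediate filament proteins of epithelial cells. An acidic type I keratin pairs with a neutral or basic type II keratin, and the pair marks the kind of epithelium: Krt8 with Krt18 or Krt19 in simple epithelium, Krt5 with Krt14 in basal cells, and Krt4 with Krt13 above the basal layer of wet stratified epithelium. The uterus and oviduct are lined by a simple columnar epithelium, while the vas deferens and epididymis have a columnar layer with basal cells beneath it. The family therefore bears on the lining of each, although whole tissues were measured and a keratin value need not come from the lining alone.

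The arrays came from adult mice of 3 to 7 months on a CD1/129 background, with 3 biological replicates in each of 14 groups. In AKO both copies of Hoxa9, Hoxa10 and Hoxa11 are mutant (Hoxa9,10,11-/-), and in DKO both copies of Hoxd9, Hoxd10 and Hoxd11 (Hoxd9,10,11-/-). AKDH is AKO with 1 copy of the 3 Hoxd genes also mutant (Hoxa9,10,11-/-d9,10,11+/-), AHDK is DKO with 1 copy of the 3 Hoxa genes also mutant (Hoxa9,10,11+/-d9,10,11-/-), and WT mice carry none of these alleles. Uterus and vas deferens were taken from all 5 genotypes, and oviduct and caudal epididymis from AKO and WT, with females in diestrus.

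Values are log values taken as log2, and each probe set is centred on the median of the 21 female or the 21 male arrays. A value therefore gives a gene's level relative to the middle array of that sex, and levels were compared neither between genes nor between sexes. A change is the difference of 2 group means with its SE from a limma fit, n = 3 arrays a group. A keratin is said to have risen or fallen where its limma p, adjusted by Benjamini-Hochberg over 19938 genes, was below 0.05. These are whole tissues, in which fewer cells of a type and less RNA per cell cannot be told apart. The 4 mutants of a tissue share its 3 WT arrays.

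Hoxa11 lay between -1.59 and 0.67 on the 6 AKO and AKDH uterus arrays against 1.23 to 2.75 on the 3 WT arrays, and between -0.84 and -0.37 in AKO and AKDH vas deferens against 0.43 to 1.38 in WT. Its fall passed in AKDH uterus (limma adjusted p = 0.016), AKO vas deferens (0.0096) and AKDH vas deferens (0.0027). It did not pass in AKO uterus (-2.56, adjusted p = 0.11), AKO oviduct (-0.56, adjusted p = 0.99) or AKO epididymis (-0.99, adjusted p = 0.11). Nor did Hoxa9 or Hoxa10 pass in these AKO tissues, so by the threshold the AKO label was not checked there. Hoxd9 was lower in DKO vas deferens (-0.55, limma adjusted p = 0.0058) and in AHDK vas deferens (-0.49, adjusted p = 0.0089) than in WT. In DKO and AHDK uterus none of the 3 Hoxd genes passed, so there the arrays did not check the label. All 10 motile cilia markers were higher in oviduct than in uterus of WT mice (14.5% of all genes were). All 9 smooth muscle markers were lower in WT epididymis than in vas deferens (16.8% of all genes were). There were 3 libraries that stood apart. WT oviduct replicate 2 had Xist at -5.92, Eif2s3y at 2.09 and a mean of 1.75 over 13 ovary markers, AKDH vas deferens replicate 3 had a mean of 0.97 over 10 sperm markers, and AKO epididymis replicate 1 had a mean of 5.36 over 10 proximal epididymis markers.

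The 300-base promoters of 3 keratins are shown first, because Krt23 and Krt20 lie close together in the type I cluster and moved in opposite directions in AHDK uterus, while Krt18 was higher in oviduct than in uterus in both genotypes. The sequences run from 250 bases before to 50 bases after the gene's start and are from RefSeq, build GRCm38.p6. Capitals mark a match to a TATA box (TATAAA), a posterior Hox core (TTTATNG) or an AP-2 site (GCCNNNGGC) on either strand. A search for a CAAT box (CCAAT) was also made and found no match in these windows.
Krt23 promoter, chr11:99493071-99493370 (- strand): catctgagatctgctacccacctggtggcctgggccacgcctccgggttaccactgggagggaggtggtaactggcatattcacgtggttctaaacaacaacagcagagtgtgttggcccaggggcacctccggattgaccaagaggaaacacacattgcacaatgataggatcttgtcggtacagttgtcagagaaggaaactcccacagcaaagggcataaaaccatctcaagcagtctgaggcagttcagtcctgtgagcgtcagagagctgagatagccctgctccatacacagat
Krt20 promoter, chr11:99438104-99438403 (- strand): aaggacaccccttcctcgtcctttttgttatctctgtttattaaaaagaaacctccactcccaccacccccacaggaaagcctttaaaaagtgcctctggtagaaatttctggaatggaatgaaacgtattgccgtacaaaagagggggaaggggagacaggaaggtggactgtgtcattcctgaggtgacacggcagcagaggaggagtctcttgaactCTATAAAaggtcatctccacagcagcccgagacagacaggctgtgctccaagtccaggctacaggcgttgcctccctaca
Krt18 promoter, chr15:102027966-102028265 (+ strand): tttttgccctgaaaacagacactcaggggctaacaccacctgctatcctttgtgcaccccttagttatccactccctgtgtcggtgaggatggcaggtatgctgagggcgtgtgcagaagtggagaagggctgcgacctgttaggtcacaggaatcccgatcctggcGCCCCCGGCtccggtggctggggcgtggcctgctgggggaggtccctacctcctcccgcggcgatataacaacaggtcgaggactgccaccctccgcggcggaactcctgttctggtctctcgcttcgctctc

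The Krt20 window held a TATA box starting 29 bases before the start, overlapped by a match to the Hox core starting 30 bases before it. The Krt18 window held an AP-2 match starting 83 bases before the start, and the Krt23 window held none of these letters. Across the 37 promoters of 36 keratins, 51.4% held a TATA box against 13.6% of all 32851 promoters in the table. The Hox core was in 40.5% of keratin promoters against 10.9% of all, and where matches that overlap a TATA box were left out, in 18.9% against 7.61%. AP-2 matches stood in 18.9% of keratin promoters against 16.6% of all, and CAAT boxes in 40.5% against 37.4%. These are counts of letters, and binding was not measured.

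Most keratins varied little across the arrays. In the female tract 15 of 52 keratins (28.8%) spanned at least 1 log2 unit over the 21 arrays, against 33.9% of all genes, and in the male tract 10 of 52 (19.2%) did, against 28.1%. Most of the wide spans were in the simple and the basal or stratified lists: 5 of the 6 simple keratins and 9 of the 22 basal and stratified keratins passed that span in females. Of the hair keratins 1 of 13 did in females and 0 of 13 in males, and of the inner root sheath keratins 0 of 8 in either sex. Krt5, the type II keratin of basal cells, had the widest female span (5.43), and Krt4, a type II keratin of stratified mucosa, the widest male span (5.18).

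**Figure D1:**
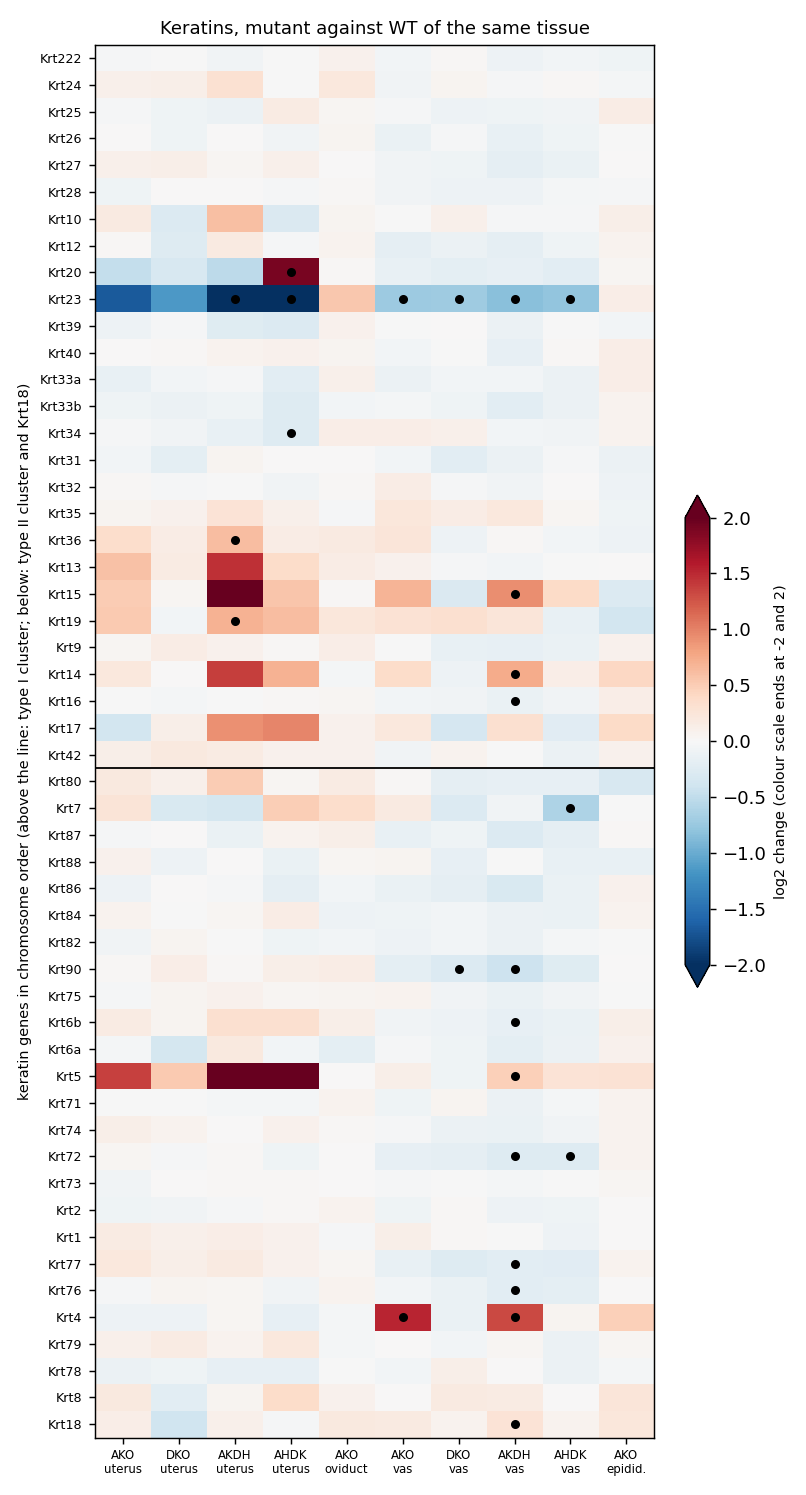
Log2 change of the 52 keratins (rows, in chromosome order) in 10 mutant groups against WT of the same tissue (columns). Colour runs from lower (blue) to higher (red) in the mutant, and a black dot marks a limma adjusted p below 0.05. Dots gather on the row of Krt23 and in the column of AKDH vas deferens.

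Krt23, a type I keratin of simple epithelium, was the member that fell in most mutants. In vas deferens it read -0.22, 0.34 and -0.0018 in AKO and 0.17, 0.13 and -0.13 in DKO. AKDH arrays gave -0.16, -0.01 and -0.04 and AHDK arrays -0.10, 0.01 and 0.00, against 0.53, 1.21 and 0.55 in WT. All 12 mutant arrays were below all 3 WT arrays. The AKO change was -0.72 (SE 0.17, limma adjusted p = 0.022) and the DKO change -0.71 (adjusted p = 0.038). With the additional alleles it was -0.84 in AKDH (adjusted p = 0.0052) and -0.80 in AHDK (adjusted p = 0.026). The AKDH fall passed in 12 of 12 alternative fits, while the AKO fall passed in 7 of them, the DKO fall in 5 and the AHDK fall in 6. WT replicate 2 was the highest array, and without it the AKO change was -0.50 (adjusted p = 0.0655), that of DKO -0.49 (adjusted p = 0.112) and that of AHDK -0.57 (adjusted p = 0.0727).

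Every array of the mutants was likewise below every WT array for 5 keratins in vas deferens: Krt23, Krt90, Krt72 (an inner root sheath keratin), Krt77 and Krt16. Of all genes 2.39% were lower in this way, and the 12 mutant arrays are set against the same 3 WT arrays. Apart from Krt23 the steps were small, as for Krt72, which lay between -0.14 and 0.08 in the mutants against 0.11 to 0.22 in WT. No keratin was higher in all 12 mutant arrays of vas deferens. In uterus Krt77 was, where 1.55% of all genes were.

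In uterus Krt23 read -0.73, 0.32 and -0.06 in AKO and -0.13, 0.46 and 0.79 in DKO. AKDH arrays gave -0.80, -1.05 and 0.02 and AHDK arrays -0.82, -0.45 and -0.58, against 3.03, 0.69 and 0.86 in WT. Here 11 of the 12 mutant arrays were below the lowest WT array, the exception being DKO replicate 3, and WT replicate 1 stood far above every other array. The fall was -2.14 (SE 0.53) both in AKDH (limma adjusted p = 0.036) and in AHDK (adjusted p = 0.049). In AKO the change was -1.68 (95% interval -2.84 to -0.52, adjusted p = 0.28) and in DKO -1.15 (-2.31 to 0.01, adjusted p = 0.33), neither of which passed. The AKDH fall passed in 5 of 11 alternative fits and the AHDK fall in 4 of 11. Both missed the threshold without any 1 mutant replicate, with the replicate block and with only the groups compared (adjusted p up to 0.188 and 0.189), and that of AHDK also without WT replicate 3. Without WT replicate 1 the changes were -1.39 in AKDH (adjusted p = 0.0532) and -1.39 in AHDK (adjusted p = 0.0746). That WT library also had the highest adipocyte marker mean of the WT uteri (1.54, against -0.62 and -0.60 in the others) and the lowest smooth muscle mean (-0.43, against 0.39 and 0.50). The part of these cells in the Krt23 value was not tested.

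**Figure D2:**
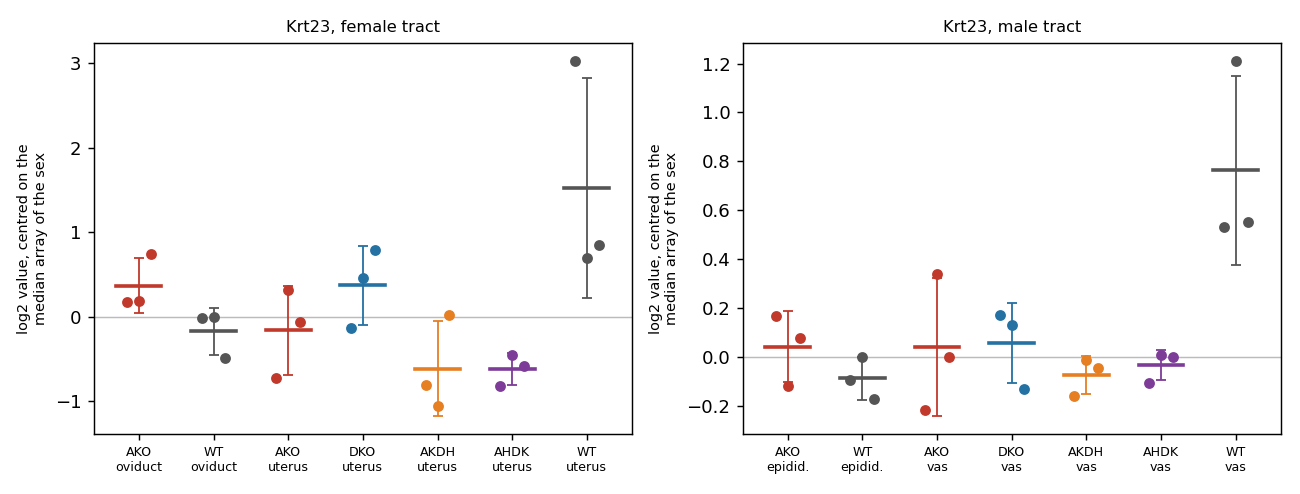
Krt23 on every array, by group, in the female tract (left) and the male tract (right), on the centred log2 scale, which starts from a different median in each sex. Points are arrays, horizontal lines the group mean, and vertical bars 1 SD (n = 3). The 3 WT vas deferens arrays lie between 0.53 and 1.21, above all 12 mutant arrays, and WT uterus replicate 1 lies at 3.03.

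In oviduct and epididymis, which were taken from AKO and WT, Krt23 did not fall. It read 0.18, 0.19 and 0.74 in AKO oviduct against -0.01, 0.00 and -0.49 in WT oviduct, a difference of 0.54 that did not pass (95% interval 0.03 to 1.05, limma adjusted p = 0.99). Epididymis gave 0.17, -0.12 and 0.08 in AKO against -0.09, 0.0015 and -0.17 in WT, a difference of 0.13 (95% interval -0.10 to 0.36, adjusted p = 0.59). The AKO arrays were above the WT arrays in oviduct and overlapped them in epididymis.

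The difference of these effects between tissues was tested too. The AKO effect on Krt23 in epididymis exceeded that in vas deferens by 0.85 (SE 0.22, limma adjusted p = 0.031), the 1 keratin of 52 that passed, where 7.22% of all genes did (3.97% higher). With the replicate number as a block the adjusted p was 0.11. The data bear out that block between these tissues within a genotype, but not between AKO and WT of either tissue. Without AKO epididymis replicate 1, the library with proximal epididymis markers, the difference was 0.79 (adjusted p = 0.0678). Leaving out WT vas deferens replicate 2 gave 0.63 (adjusted p = 0.0554). The AKO effect in oviduct exceeded that in uterus by 2.22 (SE 0.67), with an adjusted p of 0.82. In that contrast 0 of 52 keratins and 0% of all genes passed. Of 19938 genes 847 had an unadjusted p below 0.05, fewer than chance alone would give on average.

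The other simple keratins of the uterus changed less uniformly. Krt19, a type I partner of Krt8, read 0.58, -0.05 and 0.00 in AKDH uterus against -0.75, -0.55 and -0.27 in WT and rose by 0.70 (SE 0.16, limma adjusted p = 0.029). That rise passed in 6 of 11 alternative fits. It missed the threshold with quantile normalisation, with only the groups compared, and without WT replicate 1, WT replicate 2 or AKDH replicate 1 (adjusted p up to 0.17). It was also above all WT arrays in AHDK (0.17, 0.07 and 0.02, a difference of 0.61, adjusted p = 0.062) and in AKO (-0.07, -0.12 and 0.21, 0.53, adjusted p = 0.26), although neither passed. DKO uterus, at -0.67, -0.46 and -0.60, overlapped WT (-0.05, 95% interval -0.41 to 0.31). Krt8 and Krt18, the general pair of simple epithelium, passed in none of the 4 mutants, with changes between -0.21 and 0.37 for Krt8 and between -0.41 and 0.13 for Krt18. Krt7, a type II keratin of ducts and glands, ran from -0.36 in AKDH to 0.50 in AHDK and did not pass either.

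Krt20, a type I keratin best known from gut and bladder lining, rose in AHDK uterus. Its values there were 2.66, 1.74 and 2.62, against 1.28, 0.25 and -0.23 in WT, so the groups were apart, with WT replicate 1 again the highest of its group. The rise was 1.91 (SE 0.35, limma adjusted p = 0.018). AKO, at -0.01, 0.0024 and -0.12, and AKDH, at -0.06, -0.14 and -0.08, lay below all but 1 of the WT arrays, and DKO, at 0.68, -0.14 and -0.21, within their range. AHDK exceeded DKO, which differs from it by 1 set of Hoxa alleles, by 2.23 (SE 0.35), but the adjusted p was 0.085. That difference passed in 3 of 11 alternative fits, with limma adjusted p from 0.027 to 0.46. Without DKO replicate 1 it was 2.52 (adjusted p = 0.0284). The rise over WT passed in 7 of 11. It missed the threshold with only the groups compared. It also missed it without WT replicate 3, AHDK replicate 1 or AHDK replicate 3 (adjusted p = 0.0606, 0.0972 and 0.0738).

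Of 9 immune markers 5 rose in AHDK uterus, where 2.3% of all genes rose and 3.53% passed. The list's mean was 0.56 to 0.95 on the 3 AHDK arrays and 0.28 to 1.03 on the DKO arrays, against -0.39 to -0.16 on the WT arrays. The urothelial list, checked because Krt20 marks bladder umbrella cells, had a mean of -0.34 to -0.06 in AHDK against -0.68 to -0.22 in WT, and 1 of its 6 genes, Pparg, passed (0.67, limma adjusted p = 0.043). The uroplakins Upk1a, Upk1b, Upk2 and Upk3a of that list did not pass in AHDK. The mean over 22 cornified envelope genes was 0.65, 0.45 and 0.59 in AHDK against -0.27 to 0.23 in WT, and 1 of the 22 rose. Of 7 genes of epithelial injury and stress 1 rose, and their mean was 0.70, 0.39 and 0.61 in AHDK against -0.40 to 0.32 in WT. A count of 1 in a list is not read as a result about that list. The part of these cells and states in the AHDK values of Krt20, Krt5 and Krt17 was not tested.

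By count, 3 of 52 keratins passed in AHDK uterus, where 3.53% of all genes did (2.3% higher and 1.23% lower): Krt20 rose, and Krt23 and Krt34 (a hair keratin, -0.26, adjusted p = 0.027) fell. In AKDH uterus 3 of 52 passed, where 6.58% of all genes did (3.93% higher and 2.65% lower): Krt19 and Krt36 (a hair keratin, 0.62, SE 0.13, adjusted p = 0.022) rose and Krt23 fell. No keratin passed in AKO, where 0.0903% of all genes did and 4 keratins had an unadjusted p below 0.05, or in DKO, where 0.973% did and 2 keratins had one. The median change of the 52 keratins lay between 0.0004 (DKO) and 0.04 (AKDH), and that of all genes between -0.02 (AHDK) and 0.01 (DKO). In AHDK the count was 0 without WT replicate 3, AHDK replicate 1 or AHDK replicate 3, where 0.155% to 0.863% of all genes passed, and 1 without WT replicate 1 (1.78%). In AKDH it was 1 without AKDH replicate 1 (3.93% of all genes).

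No basal keratin passed in uterus, although several mutant arrays stood far above WT. Krt5 read 0.65, -0.17 and 2.57 in AKO and -0.29, 0.91 and -0.11 in DKO. AKDH arrays gave 4.95, 3.94 and 0.52 and AHDK arrays 2.40, 1.16 and 2.25, against -0.34, -0.25 and -0.47 in WT. The AKDH and AHDK arrays were all above WT, by 3.49 (SE 0.96, limma adjusted p = 0.0504) and by 2.29 (SE 0.96, adjusted p = 0.19). The AKO arrays were above WT too, by 1.37 with a wide spread (adjusted p = 0.75), and DKO overlapped WT. Its type I partner Krt14 read 2.50, 1.46 and -0.0020 in AKDH and 0.78, 0.37 and 0.75 in AHDK, against 0.04, -0.14 and -0.07 in WT. These differences were 1.38 (adjusted p = 0.082) and 0.69 (adjusted p = 0.39).

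Krt15, Krt13 and Krt17 followed the same arrays. Krt15, a type I keratin of basal cells, read 3.62, 2.03 and -0.17 in AKDH against -0.16, -0.15 and -0.23 in WT, and Krt13, the partner of Krt4, read 2.23, 1.04 and -0.20 against -0.67, -0.13 and -0.51. Krt17, a type I keratin induced in injured epithelium, read 0.99, 1.29 and 0.38 in AKDH and 1.24, 0.77 and 0.82 in AHDK, against 0.07, 0.19 and -0.33 in WT. AKDH replicates 1 and 2 carried these levels, and replicate 3 lay near WT. Without AKDH replicate 3, 7 keratins passed in place of 3: Krt5 (4.80), Krt15 (3.01), Krt13 (2.07), Krt14 (2.04), Krt17 (1.17), Krt19 and Krt36, while Krt23 missed the threshold (adjusted p = 0.0516). Of all genes 2.66% passed in that fit, against 6.58% with all 3 arrays. The array left out is the lowest AKDH array for Krt5, Krt15, Krt13, Krt14 and Krt17. Their passing there is therefore not separate evidence of a rise. Over the alternative fits Krt5 passed in 3 of 11 (limma adjusted p from 0.0085 to 0.19).

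The 10 basal cell markers that are not keratins had the order of Krt5 on the AKDH arrays, replicate 1 highest and replicate 3 lowest. Their mean was 0.61, 0.26 and -0.25 on the AKDH arrays, 0.27, 0.05 and 0.21 on the AHDK arrays and 0.29, -0.23 and -0.25 on the WT arrays, and 0 of the 10 passed in AKDH (Trp63, 0.68, adjusted p = 0.099; Col17a1, 0.62, adjusted p = 0.069). In AHDK 1 of the 10, the laminin chain Lamb3, passed (1.01, adjusted p = 0.038). Of all genes 6.58% passed in AKDH (3.93% higher) and 3.53% in AHDK (2.3% higher). AKDH replicate 1 had the highest mean over 17 other epithelial markers (0.57, against -0.25 to -0.05 in WT) and the lowest over 9 smooth muscle markers (-0.76, against -0.43 to 0.50), and its adipocyte mean was 1.69, close to the 1.54 of WT replicate 1. In AKDH 5 of 8 mesothelial markers rose, among them Gpm6a (1.999, adjusted p = 0.014) and Upk3b (2.13, adjusted p = 0.028). The desmosomal plaque gene Pkp2 rose in AKDH (0.61, adjusted p = 0.0096) and AHDK (0.51, adjusted p = 0.03), the only desmosome gene of 18 to rise in either. The part of these cells in the keratin values was not tested.

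**Figure D3:**
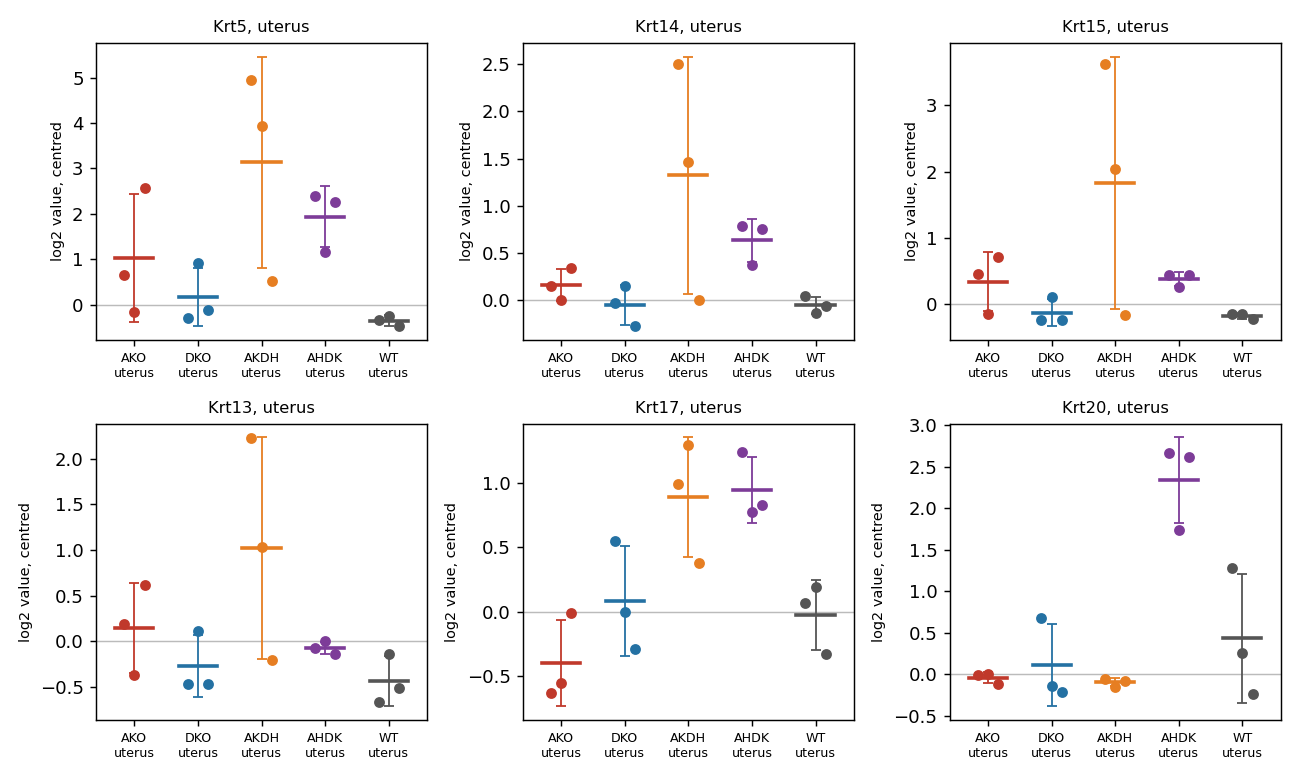
Krt5, Krt14, Krt15, Krt13, Krt17 and Krt20 on the 15 uterus arrays, by genotype, on the centred log2 scale. Points are arrays, horizontal lines the mean, and vertical bars 1 SD (n = 3). AKDH replicates 1 and 2 lie far above replicate 3 for Krt5, Krt14, Krt15 and Krt13, and Krt20 is highest on the AHDK arrays.

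Additional alleles were also tested directly in uterus. Against AKO, AKDH gave 0 keratins and 0% of all genes past the threshold, with 2063 genes at an unadjusted p below 0.05. The lowest keratin p was that of Krt17 (1.28, SE 0.27, adjusted p = 0.19). Against DKO, AHDK gave 0 keratins and 0.0251% of all genes, with Krt8 (0.59) and Krt19 (0.66) next to Krt20, each with an adjusted p of 0.36. DKO against AKO gave 0 keratins and 0.186% of all genes, with Krt19 lower by -0.58 (95% interval -0.94 to -0.22, adjusted p = 0.16) and Krt18 by -0.53 (adjusted p = 0.19). In oviduct, AKO against WT gave 0 keratins and 0% of all genes. There 609 genes had an unadjusted p below 0.05, fewer than chance alone would give on average.

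In vas deferens the second clear change was in Krt4. It read 1.33, 1.92 and 1.25 in AKO and 1.46, 1.23 and 1.20 in AKDH, with no overlap with the other genotypes: -0.25, -0.25 and 0.02 in DKO, 0.00, -0.14 and 0.21 in AHDK, and 0.14, 0.35 and -0.58 in WT. The rise over WT was 1.53 in AKO (SE 0.22, limma adjusted p = 0.0016) and 1.33 in AKDH (SE 0.22, adjusted p = 0.0015), and both passed in 12 of 12 alternative fits. DKO differed from WT by -0.13 (95% interval -0.62 to 0.36) and AHDK by 0.05 (-0.44 to 0.54), and DKO was below AKO by -1.66 (SE 0.22, adjusted p = 0.00067). Krt13, which pairs with Krt4 in stratified mucosa, did not move with it: its change was 0.08 in AKO (95% interval -0.08 to 0.24) and -0.05 in AKDH (-0.21 to 0.12). In the female tract, Krt4 stayed between -0.19 and 0.51 on all 21 arrays.

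Krt14, Krt5 and Krt15, keratins of basal cells, rose in AKDH vas deferens, where 9.57% of all genes did. Krt76, Krt77, Krt6b and Krt16, of the same basal and stratified list, fell (given below). Krt14 read 0.37, 0.73 and 0.52 against -0.23, -0.01 and -0.36 in WT and rose by 0.74 (SE 0.15, limma adjusted p = 0.0046), and its partner Krt5 read 0.33, 0.54 and 0.24 against -0.17, -0.23 and 0.08 and rose by 0.47 (SE 0.12, adjusted p = 0.016). Krt15 read 0.00, 0.47 and 0.26 against -0.79, -0.64 and -0.64, a rise of 0.93 (SE 0.26, adjusted p = 0.023). For all 3 genes the AKDH arrays were above the WT arrays. The Krt14 rise passed in 12 of 12 alternative fits, and those of Krt5 and Krt15 in 8 of 12.

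In AKO vas deferens the same 3 genes overlapped WT or missed the threshold, with changes of 0.37 for Krt14 (adjusted p = 0.17), 0.11 for Krt5 (adjusted p = 0.67) and 0.68 for Krt15 (adjusted p = 0.14). AKDH against AKO passed for 0 keratins, where 1.29% of all genes did. The differences there were 0.38 for Krt14 (adjusted p = 0.28) and 0.36 for Krt5 (adjusted p = 0.19). In AHDK the changes against WT were 0.14, 0.28 and 0.39 for Krt14, Krt5 and Krt15, and in DKO -0.10, -0.09 and -0.28, none past the threshold.

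In AKDH vas deferens 12 of 52 keratins (23.1%) passed, where 24.3% of all genes did (9.57% higher and 14.8% lower): 5 rose (Krt4, Krt15, Krt14, Krt5 and Krt18) and 7 fell. Krt18, the type I keratin of simple epithelium, rose by 0.27 (SE 0.06, adjusted p = 0.0073). Besides Krt23, the falls were in Krt90 (-0.42, adjusted p = 0.00095), Krt72 (-0.26, adjusted p = 0.0034), Krt76 (-0.21), Krt77 (-0.21), Krt6b (-0.16) and Krt16 (-0.14), the last 4 with adjusted p between 0.018 and 0.045. The Krt90 fall passed in 12 of 12 alternative fits and that of Krt72 in 11 of 11. Krt76 and Krt16 passed in 4 of 11 each, Krt77 in 3 of 11 and Krt6b in 6 of 11. Krt76 and Krt77 are type II keratins of stratified epithelium, and Krt6b and Krt16 form a pair induced in wounded skin. Krt90 read -0.25, -0.25 and -0.23 in AKDH against 0.15, 0.26 and 0.13 in WT, and its groups were apart. Leaving out WT replicate 1 or WT replicate 2 left 6 keratins past the threshold, where 18.3% and 15.2% of all genes passed, and leaving out AKDH replicate 3, the library with sperm markers, gave 14, where 23.6% did.

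Of the 10 basal cell markers that are not keratins, 5 rose and 1 fell in AKDH vas deferens. Of all genes 9.57% rose and 14.8% fell there. Lamb3 (0.60, adjusted p = 0.0026), the basal cell transcription factor Trp63 (0.49, adjusted p = 0.022), the hemidesmosome collagen Col17a1 (0.35) and the laminin chain Lama3 (0.32) were among those that rose. Their mean was 0.20, 0.03 and -0.01 on the AKDH arrays against -0.06, 0.03 and -0.06 on the WT arrays, which overlap. Other cell types moved in the same group. All 8 adipocyte markers rose, with a mean of 1.38 to 1.62 against -1.07 to 0.25 in WT, and 7 of 9 smooth muscle markers fell, with a mean of -0.39 to -0.02 against 0.24 to 0.70. Their part in the keratin values was not tested.

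In AKO vas deferens 2 of 52 keratins passed, where 9.35% of all genes did (4.91% higher and 4.44% lower): Krt4 rose and Krt23 fell. In DKO 2 of 52 passed, where 5.87% did (2.02% lower), and both fell: Krt23 and Krt90 (-0.27, adjusted p = 0.037). In AHDK 3 of 52 passed, where 4.15% did (2.07% lower), and all fell: Krt23, Krt72 (-0.25, adjusted p = 0.019) and Krt7. Krt7 read -0.65, -0.51 and -0.56 in AHDK against -0.01, 0.00 and 0.13 in WT, well apart, and fell by -0.61 (SE 0.14, adjusted p = 0.031). It passed in 4 of 12 alternative fits, and over the 12 the change ran from -0.80 to -0.57. The AKO count was 4 without WT replicate 3 (8.86% of all genes) and 1 without WT replicate 2, AKO replicate 1 or AKO replicate 3 (5.11% to 6.23%). The DKO count was 0 without WT replicate 1 or 2 or without DKO replicate 1 or 3 (1.19% to 1.95% of all genes), and the AHDK count was 0 without WT replicate 2 or without AHDK replicate 1 or 3 (1.23% to 2.33%). In AHDK 7 of 8 adipocyte markers rose, and in AKO 6 of 8 did, while 3 of 9 smooth muscle markers fell in AKO.

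DKO against AKO in vas deferens gave 4 keratins past the threshold, all lower in DKO, where 17.8% of all genes passed and 6.37% were lower. Besides Krt4 these were Krt15 (-0.96, adjusted p = 0.025), Krt7 (-0.45, adjusted p = 0.044) and Krt36 (-0.33, adjusted p = 0.017). Krt15 read -1.18, -0.68 and -1.06 in DKO against 0.54, -0.52 and -0.04 in AKO, apart but with a wide AKO group. Without AKO replicate 1 its difference was -0.69 (adjusted p = 0.0958), and Krt4 alone passed, where 11.1% of all genes did. Krt4 alone also passed without DKO replicate 1 (10.4%), and 2 keratins passed without DKO replicate 3 (12.7%). AHDK against DKO gave 0 keratins and 0.366% of all genes, with Krt19 lower by -0.46 (adjusted p = 0.19).

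In epididymis, AKO against WT gave 0 keratins past the threshold, where 0.782% of all genes passed. The basal pair came nearest. Krt14 read 0.58, 0.43 and 0.59 in AKO against 0.07, 0.10 and 0.18 in WT, and Krt5 read 0.00, 0.14 and -0.02 against -0.33, -0.19 and -0.22. Both were apart, with differences of 0.42 (95% interval 0.25 to 0.59, limma adjusted p = 0.068) and 0.29 (0.11 to 0.47, adjusted p = 0.14). Krt8 (0.25, adjusted p = 0.14), Krt17 (0.39, adjusted p = 0.16) and Krt18 (0.22, adjusted p = 0.17) were also above WT on every array. Krt15, another keratin of basal cells, went the other way. It was below WT on every AKO array (-0.28, 95% interval -0.50 to -0.05, adjusted p = 0.22).

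**Figure D4:**
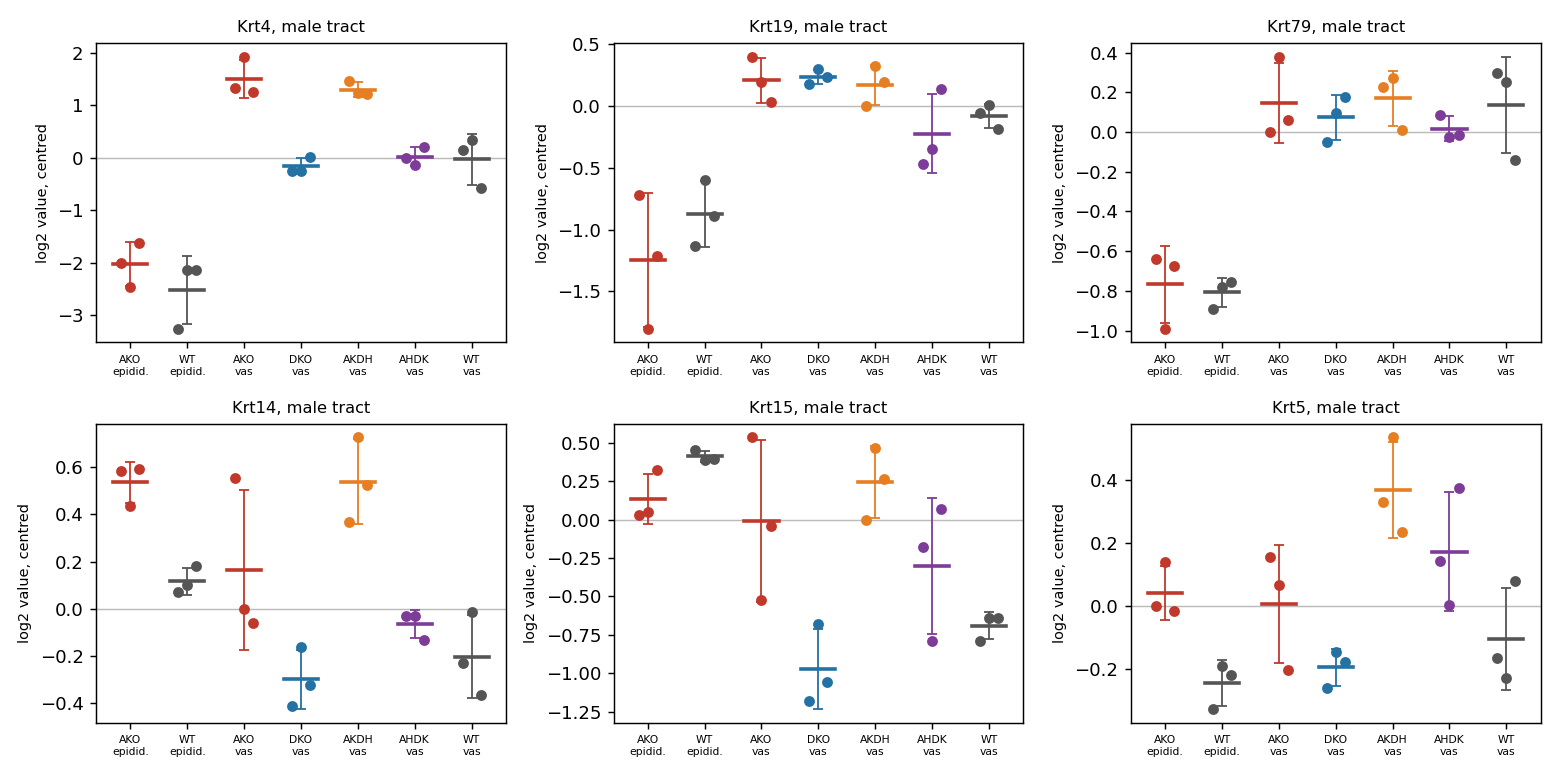
Krt4, Krt19, Krt79, Krt14, Krt15 and Krt5 on the 21 male arrays, by group, on the centred log2 scale, with a scale of its own for each gene. Points are arrays, horizontal lines the mean, and vertical bars 1 SD (n = 3). Krt4 is highest on the AKO and AKDH vas deferens arrays and lowest in epididymis, and Krt79 is lower on all 6 epididymis arrays than on all vas deferens arrays.

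Most keratins that passed between the 2 male tissues were lower in epididymis, as were most of all genes that passed. The direction was therefore not particular to keratins. In WT, 12 of 52 keratins passed between epididymis and vas deferens, 2 higher and 10 lower, where 28.1% of all genes did (11.2% higher and 16.8% lower). In AKO 10 passed, 2 higher and 8 lower, where 15.5% did (7.15% higher and 8.31% lower). The WT count was 7 without WT vas deferens replicate 1 (24.1% of all genes), and the AKO count was 5 or 6 without replicate 1 or 3 of either AKO tissue (10.7% to 13.6%). Krt4 was lower in both genotypes: it read -1.999, -2.46 and -1.63 in AKO epididymis, a difference of -3.53 from AKO vas deferens (adjusted p = 8.4e-07), and -3.26, -2.14 and -2.14 in WT epididymis, a difference of -2.48 from WT vas deferens (adjusted p = 9.3e-06). The AKO effect on Krt4 in epididymis less that in vas deferens was -1.04, which did not pass (adjusted p = 0.16).

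Krt79, Krt19 and, less firmly, Krt78 and Krt18 were also lower in epididymis than in vas deferens in both genotypes. Krt79, a type II keratin of stratified and glandular epithelium, read -0.64, -0.99 and -0.67 in AKO epididymis against 0.00, 0.38 and 0.06 in AKO vas deferens (-0.91, adjusted p = 0.00011). In WT it read -0.89, -0.78 and -0.75 in epididymis against 0.30, 0.25 and -0.14 in vas deferens (-0.94, adjusted p = 2.8e-05). Both pairs were far apart. Krt19 differed by -1.45 in AKO (adjusted p = 0.00021) and by -0.79 in WT (adjusted p = 0.0096), Krt78 by -0.56 (adjusted p = 0.02, and 0.0969 with the replicate block) and -0.58 (adjusted p = 0.0089, and 0.0682 with the block), and Krt18 by -0.17 (adjusted p = 0.049, and 0.0658 with the block) and -0.22 (adjusted p = 0.0082). The Krt78 difference passed in 5 of 12 alternative fits in AKO and in 9 of 12 in WT. The Krt18 difference passed in 1 of 11 alternative fits in AKO, where leaving out any 1 of the 6 arrays ended the call, and in 8 of 11 in WT. In WT it missed the threshold with quantile normalisation, with only the groups compared and without WT vas deferens replicate 3.

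Krt23 differed between the male tissues in WT by -0.85 (adjusted p = 0.00066) and in AKO by 0.0024 (95% interval -0.33 to 0.34, adjusted p = 0.99), the pair of values behind the tissue difference of its AKO effect given above. Also in WT, Krt15 was higher in epididymis by 1.10 (adjusted p = 0.0017) and Krt80, a type II keratin found in many epithelia, by 0.28 (adjusted p = 0.026), and Krt8 was lower by -0.35 (adjusted p = 0.0036). Krt72 (-0.19), Krt77 (-0.20) and Krt6b (-0.15) were lower too, but each lost its call with the replicate block (adjusted p = 0.0997, 0.087 and 0.0789). In AKO alone, Krt35 (-0.40, adjusted p = 0.012), Krt36 (-0.24, adjusted p = 0.048) and Krt1 (-0.27, adjusted p = 0.0048, and 0.05 with the block, just above the threshold) were lower, and Krt87 (0.28, adjusted p = 0.044) and Krt90 (0.22, adjusted p = 0.039, and 0.0585 with the block) higher in epididymis. Krt36 and Krt87 passed in 4 of 11 alternative fits each and Krt90 in 2 of 12. Krt87 missed the threshold without any 1 AKO array of these tissues. That the keratins named for AKO alone did not pass in WT does not show a difference between the genotypes, which passed for Krt23 alone.

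Other cell types moved with the male tissues too. Smooth muscle markers were lower in epididymis, 7 of 9 in AKO and 9 of 9 in WT. Of all genes 8.31% in AKO and 16.8% in WT were lower, and 7.15% and 11.2% higher. All 8 adipocyte markers were lower in AKO epididymis, with means of -1.83 to -1.15 against 0.40 to 1.51 in AKO vas deferens. In WT 5 of 8 were lower, with means of -2.02 to -0.86 in epididymis against -1.07 to 0.25 in vas deferens. Of 8 mesothelial markers 1 was lower in AKO and 2 in WT, among them Calb2 (-1.57 and -2.50). No sperm marker of 10 passed in AKO (means of -0.68 to -0.25 in epididymis against -0.91 to -0.62 in vas deferens), and all 10 were higher in WT epididymis (2.08 to 3.45 against -0.01 to 0.59). Their part in the keratin values was not tested.

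In the female tract, WT oviduct and WT uterus differed for 7 of 52 keratins, 5 higher and 2 lower in oviduct, where 23.9% of all genes passed (14.5% higher and 9.39% lower). In AKO 3 passed, all higher, where 17.8% did (10.7% higher). The AKO count was 0 without AKO oviduct replicate 3 (12.4% of all genes) and 1 without AKO uterus replicate 1. Krt18 read 0.63, 0.60 and 0.74 in AKO oviduct against 0.00, 0.17 and -0.01 in AKO uterus (0.60, SE 0.16, adjusted p = 0.013), and 0.55, 0.28 and 0.57 in WT oviduct against 0.36, -0.19 and -0.39 in WT uterus (0.54, adjusted p = 0.018). The AKO groups were apart and the WT groups overlapped. Krt80 was higher in oviduct by 0.57 in AKO (adjusted p = 0.036, and 0.0767 with the replicate block, which the data bear out there) and by 0.60 in WT (adjusted p = 0.022), and Krt75, a type II keratin of the hair follicle companion layer, by 0.40 (adjusted p = 0.018) and 0.32 (adjusted p = 0.042).

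The remaining WT calls were Krt19 (0.62, adjusted p = 0.014) and Krt36 (0.42, adjusted p = 0.026), higher in oviduct, and Krt23 (-1.69, adjusted p = 0.016) and Krt25 (-0.22, adjusted p = 0.039), lower. Without WT oviduct replicate 2, the library with ovary markers and Y-linked signal, 6 passed (22.1% of all genes), and Krt25 was the one lost (-0.19, adjusted p = 0.122). Without WT oviduct replicate 3, 0 passed (14.8% of all genes), and without WT uterus replicate 2 or 3 or WT oviduct replicate 1, 3 or 4 did (18.9% to 20.2%). Without WT uterus replicate 1 the Krt23 difference was -0.94 (adjusted p = 0.0611). Krt8, Krt7, Krt5 and Krt14 did not pass between oviduct and uterus in either genotype, with Krt8 at 0.11 in AKO and 0.23 in WT. The AKO and WT comparisons of tissues share no arrays.

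All 10 motile cilia markers were higher in oviduct than in uterus in both genotypes, where 10.7% (AKO) and 14.5% (WT) of all genes were. Of 8 mesothelial markers 3 were higher in AKO oviduct, with means of 0.61 to 0.76 against -0.12 to 0.21 in AKO uterus, and 6 in WT oviduct, with means of 0.50 to 1.03 against -1.26 to -0.26 in WT uterus. Msln, a mesothelial surface protein, differed by 1.52 in AKO and by 2.07 in WT. Of 6 urothelial markers 1 was higher in AKO oviduct (Upk1a, 2.02) and 3 in WT oviduct, with Upk1a at 4.32. The part of these cells in the keratin values was not tested.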

How the data were processed

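Total RNA from 42 tissue samples was labelled as biotinylated cDNA and hybridised to Affymetrix arrays, per the labels. The deposited table holds log values, taken here as log2 (the sources used here do not state the base), and every probe set has median 0 over the 21 female and over the 21 male arrays. Absolute levels are therefore lost. The authors' probe summarisation and normalisation, and the build, were not given in the sources used. Of 28856 probe sets, 21789 carried 1 gene symbol, 1621 several and 5446 none; probe sets of a gene were averaged, giving 19938 genes. All 52 keratins have 1 probe set and matched RefSeq.

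Comparisons used limma 3.58.1 under R 4.3.3 (lmFit, eBayes) on group means. Fits within a tissue took every array of it, and fits between tissues every array of that sex, with Benjamini-Hochberg adjustment over all genes and a threshold of 0.05. The design has 3 arrays per group, which limits the precision. On simulated data with 100 genes changed by 1 log2 unit, 89 were recovered in uterus (AKO against WT) and 89 in vas deferens, with 13 and 15 false calls over both sizes simulated. These rates need not hold for keratins of wide spread. In AKO uterus Krt23 had an SE of 0.53, and its change of -1.68 did not pass (limma adjusted p = 0.28).

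Replicate numbers come from the sample labels. Same-numbered arrays deviated together in every pair (correlation over 0.1) for AKO against WT oviduct, for AKO oviduct against uterus, and for epididymis against vas deferens in AKO and in WT, so there the blocked fit stands beside a result it changes. Alternatives were quantile normalisation, only the groups compared, genes with an SD below the median left out, probe sets kept apart, the replicate block, and each replicate or the 3 libraries that stand apart left out. The rule for naming keratins in a comparison took those past the threshold, the 4 with the smallest adjusted p where fewer passed, and Krt7, Krt8, Krt18, Krt19, Krt5, Krt14 and Krt23; some that did not pass are not printed. Krt15, Krt13, Krt17 and Krt20, where named beyond this rule, were chosen after their values were seen. The members and lists were chosen with earlier results of these data known.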

Additional observations from a re-analysis of the deposited data

Results flagged for a closer look

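The effect of AKO on Krt23 differed between the 2 male tissues by a test of the difference itself. AKO minus WT was 0.13 in epididymis and -0.72 in vas deferens, and the difference of 0.85 (limma interaction term, 95% interval 0.38 to 1.33) had an adjusted p of 0.031. It passed in 7 of 18 alternative fits and kept its sign in all 18. The cause was not tested.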

How the results depend on the processing

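Of 122 keratin values in comparisons, 62 were called. Over 1442 alternative values, 1155 kept direction and side of the threshold, 258 lost the call, 17 gained one and 12 turned sign.

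With only the groups compared, the count of keratins was 0 for AKDH uterus, where 0.411% of all genes passed. In vas deferens it was 1 for AKO (8.33% of all genes), 0 for DKO (4.42%), 6 for AKDH (14.2%) and 0 for AHDK (0%). It was 2 for DKO against AKO vas deferens, and 0 for WT oviduct against uterus. For the AKO effect in epididymis minus that in vas deferens it was 0 too. With quantile normalisation it was 0 for DKO (1.99% of all genes), 7 for AKDH (19.1%) and 0 for AHDK (2.82%) vas deferens. It was 1 for AHDK against DKO uterus, 2 for WT and 1 for AKO oviduct against uterus, and 4 for WT epididymis against vas deferens. The filter for low spread also left out keratins with an SD below the median, so its counts are not out of 52. With it the count was 5 for AKDH uterus, and 1 for DKO and 6 for AKDH vas deferens. It was 1 for AHDK against DKO uterus, and 5 for AKO epididymis against vas deferens. Of the keratins called in AKDH vas deferens, this filter removed Krt18, Krt72, Krt76, Krt77, Krt6b and Krt16. Their SD over the male arrays was below the all-gene median of 0.1735, so they were not tested there. With the replicate block the count was 4 for WT oviduct against uterus, where the numbers do not pair the samples. It was 0 for the AKO effect in epididymis minus that in vas deferens. For that contrast it was again 0 without the 3 libraries that stand apart. Beyond the removals by the filter for low spread, the cause was not tested.

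Leaving out each replicate in turn gave 1 to 7 keratins in AKDH uterus, where 2.66% to 6.05% of all genes passed. It gave 0 to 2 in AHDK uterus (0.155% to 2.53% of all genes). For vas deferens it gave 1 to 4 in AKO (5.11% to 8.86%) and 0 to 3 in DKO (1.19% to 6.64%). AKDH gave 6 to 14 (15.2% to 23.6%) and AHDK 0 to 2 (1.23% to 4.35%), and DKO against AKO gave 1 to 4. In uterus, AKDH against AKO and AHDK against DKO gave 0 to 1 each. Oviduct against uterus gave 0 to 3 in AKO and 0 to 6 in WT, epididymis against vas deferens 5 to 7 in AKO and 7 to 12 in WT, and the AKO effect in epididymis minus that in vas deferens 0 to 3. The other counts were 0 throughout. Counts in this section without a share of all genes beside them are not read as results about keratins.

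Small Krt23 differences turned sign. DKO minus AKO in vas deferens, 0.02, was -0.0834 with quantile normalisation and ranged from -0.1133 to 0.166 when a replicate was left out, and AKDH minus AKO, -0.11, ranged from -0.242 to 0.0373. AKO epididymis minus vas deferens, 0.0024, was -0.0678 with quantile normalisation, -0.0603 without the 3 libraries, and from -0.1267 to 0.1526 when a replicate was left out.

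With 3 arrays a group, the size of the Krt23 falls in uterus rests on WT replicate 1, and that of the basal keratins in AKDH uterus on AKDH replicates 1 and 2. Centred values do not show which keratins were above background.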
